A study of Mus musculus with 3 samples.

Results

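The genes of the DNA replication machinery were described in wild-type (WT) mouse embryonic fibroblasts (MEFs). The set was a fixed list of 51 genes, chosen by name for the role of their products in replication, and all 51 of the 51 were found among the 21782 genes of the count table. MEFs are primary connective tissue cells grown out of the mouse embryo. These came from E12.5 embryos and were kept in DMEM with 20% fetal bovine serum and harvested as asynchronous cultures. The series held 3 clones of 1 group, with no mutant, treatment or time point, and 1 polyA+ RNA library was sequenced from each clone. The sources used here do not tie the clones to separate embryos, so the spread between them may be technical in part, and with 1 group no difference between conditions could be tested.

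A cell copies its genome once per cycle, in steps that these genes divide among them. In G1 the origin recognition complex (ORC) with CDC6 and CDT1 loads the ring-shaped MCM2-7 helicase onto DNA, a step called licensing. At the start of S phase the CDC7-DBF4 kinase and further factors add CDC45 and the GINS complex to MCM2-7, which turns the loaded ring into an active helicase. DNA polymerases then extend primers made by primase, held on DNA by the PCNA clamp, while RPA coats single strands, FEN1 and LIG1 join the Okazaki fragments, and ribonucleotide reductase supplies the deoxynucleotides. Many of these genes are known targets of the E2F transcription factors, which act at the entry into S phase, and they are expressed little in cells that have left the cycle.

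The libraries held between 22594316 and 25261357 counts. The 8 fibroblast markers, among them the collagens Col1a1 and Col1a2, were all above 3 counts in every clone and summed to between 67708 and 92905 CPM (counts scaled to a common library size by the TMM method of edgeR). Markers of epithelium summed to at most 6.73 CPM and those of endothelium to at most 13.1 CPM, and 3 of 4 markers of other leukocytes were at 0 counts in every clone. Macrophage markers stood apart: all 11 that were in the table, Csf1r and Lyz2 among them, were highest in clone 2, and they summed to 398, 1871 and 330 CPM in clones 1, 2 and 3.

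The promoters are shown first, and their part in the differences between the clones was not tested. The sequences are the RefSeq windows of GRCm38.p6 that run from 250 bases before to 50 bases after each gene start, and 41 of the 51 genes had at least 1 window. Those without were Gmnn, Mcm4, Gins1, Gins2, Gins4, Prim2, Pole, Rfc2, Dscc1 and Tipin. The words TTTCCCGC, TTTCGCGC, TTTGCCGC and TTTGGCGC, 8-base forms that E2F factors are known to bind, were searched on both strands. Other forms were not searched, so a gene without a word is not shown to lack a site. They were found in 15 of the 41 genes (36.6%), compared with 4.65% of the 9317 genes that had a window and were tested between libraries. Counted by window, 30.6% of the 49 windows of the replication genes held a word, against 2.26% of all 32851 windows. The 15 genes were Orc1, Orc3, Cdc6, Cdt1, Mcm3, Mcm5, Mcm6, Mcm7, Mcm8, Gins3, Pola1, Pold1, Rfc3, Lig1 and Clspn. A match is a description of the letters and was not tested as a binding site.

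The stretches below show the words in licensing and fork genes, each read 5′ to 3′ in the direction of its gene, with the word in capitals and 9 bases to each side where the window allowed. Mcm5 and Mcm6 are shown because each holds a pair of overlapping words. Orc1 and Orc3 are shown because both hold a word and their counts behaved differently between the clones. Cdc6, Pola1 and Clspn are among the genes with the widest spread between clones.
Mcm5, chr8:75109347-75109376, plus strand: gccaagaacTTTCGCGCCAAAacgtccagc
Mcm6, chr1:128359795-128359824, minus strand: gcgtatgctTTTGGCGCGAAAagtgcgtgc
Mcm7, chr5:138172032-138172057, minus strand: tttcgaaccGCGGGAAAcagggtgtc
Mcm3, chr1:20820277-20820302, minus strand: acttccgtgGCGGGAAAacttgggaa
Cdc6, chr11:98908004-98908029, plus strand: cggtggagaGCGGGAAAtcgcctggg
Orc1, chr4:108579418-108579443, plus strand: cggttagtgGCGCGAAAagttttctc
Orc3, chr4:34614967-34614992, minus strand: atgcctcccTTTCCCGCacgccccgc
Pola1, chrX:93632277-93632302, minus strand: catcacaggGCGCCAAAtgcactccc
Clspn, chr4:126556992-126557017, plus strand: cgcgtctggGCGCGAAAgctcgaact

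The capitals of Mcm5 and Mcm6 are the same 12 bases read on opposite strands. This run was picked from these windows, so its count is a description only. It occurred in 4 of the 32851 windows (0.0122%), of which these genes held 2. In Mcm5 it began 153 bases before the gene start and in Mcm6 110 bases before it. Mcm6 held a further word 47 bases before the start, and Mcm3 and Mcm7 also held words at 2 places each. The word of Orc1 began 27 bases before the start and that of Orc3 41 bases before it, while that of Clspn lay after the start, from base 22 to base 29. These starts are those of RefSeq. In GENCODE M21, used here for lengths, Orc1 starts at base 108579423 and Mcm7 at base 138172422. By that annotation their words shown above lie inside the genes.

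A second element, CCAAT on either strand (the core of the box bound by NF-Y), was present in 61.0% of the 41 genes and in 43.0% of the tested genes, and by window in 55.1% of theirs against 37.4% of all windows. The cell-cycle homology region, searched as TTTGAA on both strands, was in 14.6% of the replication genes and in 13.9% of the tested genes, and by window in 14.3% against 17.9% of all windows. It is best known from genes expressed in G2 and mitosis. Mcm5 and Rrm2 are printed with Cdc6 as sequences upstream of the RefSeq start (GRCm38.p6, bases 250 to 1 before it, all on the plus strand). All of them were more than 2-fold apart between clones and their elements differed. GENCODE M21 starts Cdc6 earlier, at base 98907801, so the printed bases of Cdc6 lie inside the gene by that annotation. The window of Mcm5 held a pair of overlapping E2F words, in capitals, and 3 CCAAT elements, of which 2 lie in the printed bases, that of Cdc6 held 1 E2F word and no CCAAT, and that of Rrm2 held no E2F word and 1 CCAAT.
Mcm5, chr8:75109259-75109508: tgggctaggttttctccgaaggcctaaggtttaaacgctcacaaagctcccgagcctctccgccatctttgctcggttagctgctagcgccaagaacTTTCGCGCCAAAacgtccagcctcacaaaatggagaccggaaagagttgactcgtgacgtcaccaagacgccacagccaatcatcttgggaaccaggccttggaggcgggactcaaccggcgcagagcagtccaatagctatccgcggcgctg
Cdc6, chr11:98907901-98908150: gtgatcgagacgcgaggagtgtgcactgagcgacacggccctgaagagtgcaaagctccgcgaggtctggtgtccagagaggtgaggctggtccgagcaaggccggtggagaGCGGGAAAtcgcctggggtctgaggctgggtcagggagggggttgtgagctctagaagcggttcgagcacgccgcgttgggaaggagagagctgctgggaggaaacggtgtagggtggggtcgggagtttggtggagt
Rrm2, chr12:24708004-24708253: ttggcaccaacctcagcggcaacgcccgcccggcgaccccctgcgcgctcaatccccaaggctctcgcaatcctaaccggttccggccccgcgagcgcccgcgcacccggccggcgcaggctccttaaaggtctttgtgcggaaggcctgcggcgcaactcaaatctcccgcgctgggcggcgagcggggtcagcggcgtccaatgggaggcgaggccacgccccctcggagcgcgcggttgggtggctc

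**Figure D1:**
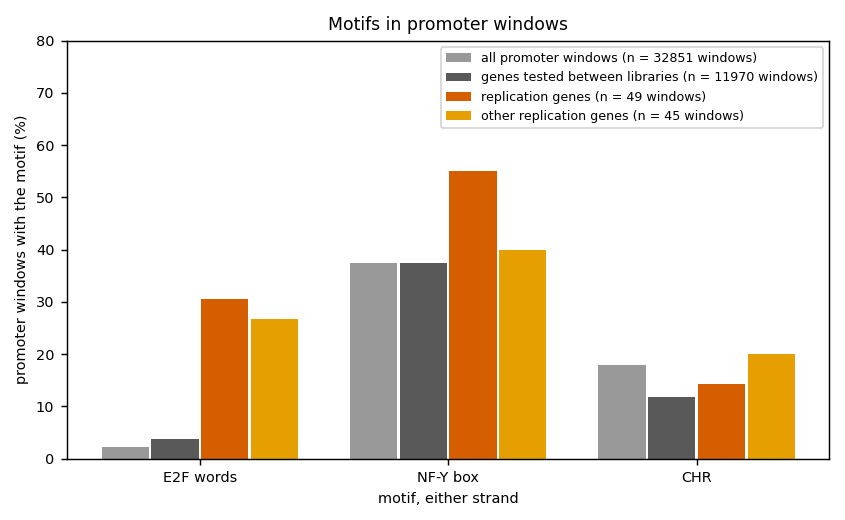
Share of promoter windows that hold each motif on either strand, in percent, for all windows and for genes tested between libraries. It is also shown for the 41 of the 51 replication genes that had a window, and for 39 of 49 genes of a further list of replication genes. The bars of the replication genes stand at 30.6% for the E2F words against 2.26% of all windows, while for the cell-cycle homology region (CHR) they stand close to the other sets.

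All 51 genes were expressed in every clone at 1 CPM or more. Clones 1, 2 and 3 had summed levels of 1159, 2140 and 1809 CPM (1703 ± 499 CPM, SD, n = 3). The summed level of clone 1 was thus 58.7% of the mean of the other clones. As a share of all counts, the 51 genes took 0.114%, 0.214% and 0.184% of the libraries. Reads that could belong to another gene limit 17 of the 51 genes, which share 5% or more of their 86-base stretches with another transcript, and the largest such shares are given beside the gene. In bulk RNA, fewer cells in the cycle and less of this RNA per cell cannot be told apart.

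Clone 1 had the lowest CPM for 49 of the 51 genes, compared with 39.4% of the 12218 genes that reached 10 counts in each library and were tested. Clone 2 had the highest CPM for 46 of them, compared with 35.2% of those genes. The order clone 1, clone 3, clone 2 from low to high held for 46 genes, against 23.5% of all genes tested. The range between the highest and the lowest clone, on the log2(CPM + 1) scale, had a median of 0.75 over the replication genes and of 0.28 over all genes tested. Without clone 1 this median was 0.22 over the replication genes and 30 of them were called by the chi-square test, against 31.7% of all genes tested in those libraries. In linear CPM the highest clone was at least 1.5-fold above the lowest for 40 genes and at least 2-fold above it for 16, where all genes tested gave 22.3% and 8.38%. The chi-square test of the 3 libraries' counts, with Benjamini-Hochberg adjustment over all genes tested, called 49 of the 51 genes, and it called 62.5% of all genes. The test weighs the libraries against counting noise alone, so that clone, culture and library preparation cannot be told apart. The biological coefficient of variation that edgeR estimates per gene over the 3 clones had a median of 0.234 for the replication genes and of 0.151 for all genes. The 51 genes lay on 18 chromosomes, 10 of them on chromosome 5.

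**Figure D2:**
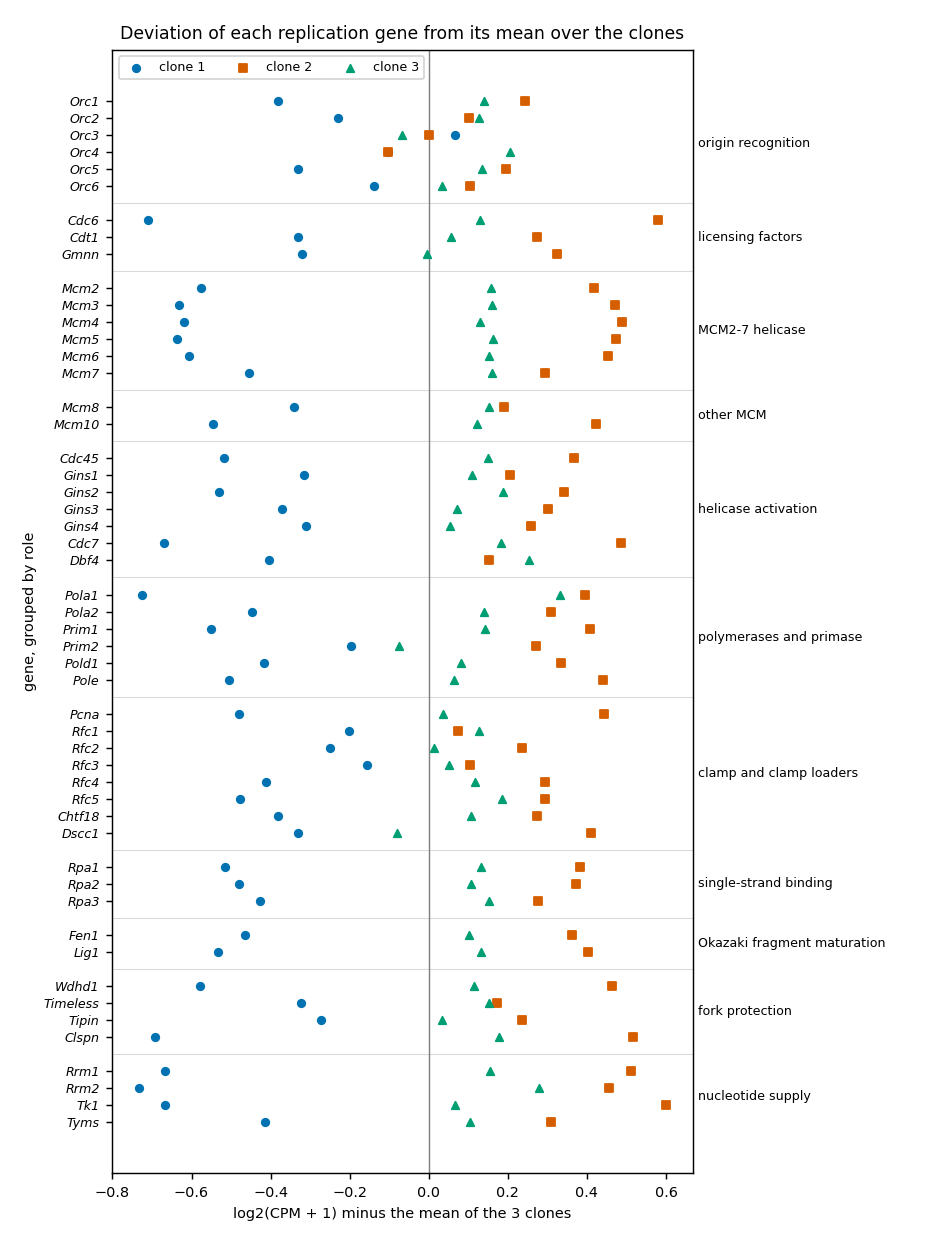
Deviation of each of the 51 genes from its own mean over the 3 clones, in log2(CPM + 1), with 1 point per clone and the genes grouped by role. The points of clone 1 lie lowest for 49 genes, and the exceptions, Orc3 and Orc4, are both subunits of ORC.

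Several marker lists moved in the same order as the replication genes or against it, and their part in the result was not tested. The 6 markers of mitosis, such as Mki67 and Plk1, were all lowest in clone 1 and summed to 368, 723 and 609 CPM. The cell-cycle inhibitors Cdkn1a, Cdkn2a and Cdkn2b ran the other way: all 3 were highest in clone 1 and lowest in clone 2, with sums of 587, 411 and 464 CPM. The macrophage markers were 4.71-fold higher in clone 2 than in clone 1, while clones 1 and 3 were close in them, at 398 and 330 CPM. Between those clones alone, 50 of the 51 replication genes were lower in clone 1. The median log2 difference, clone 3 minus clone 1, was 0.57 over the replication genes and 0.006 over all genes. The pairwise chi-square test called 46 of the 51 lower, against 24.2% of all genes. Clone 1 against clone 2 gave 49 genes called lower (28.4% of all genes). Clone 2 against clone 3 gave 29 genes called higher in clone 2 (16.6% of all genes) and 1, Orc4, called lower (15.1%).

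**Figure D3:**
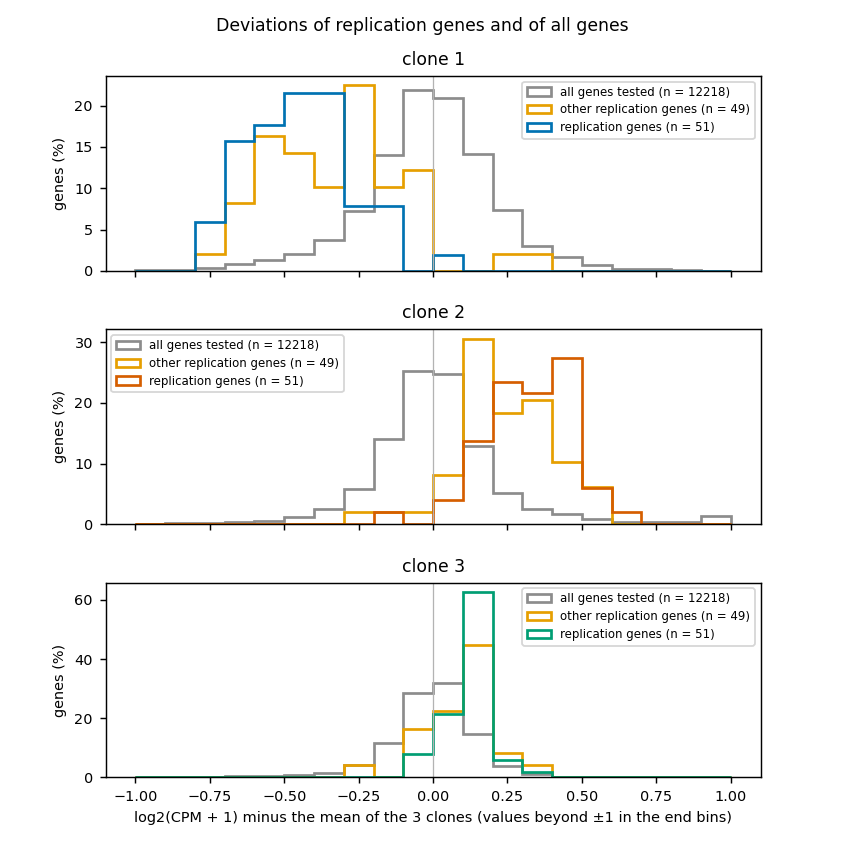
Distribution of the deviations from the mean of the 3 clones, in log2(CPM + 1), for each clone as a percentage of genes, for the 51 replication genes, for 49 other replication genes and for all 12218 genes tested. The median of the 51 genes lies at -0.45 in clone 1, 0.33 in clone 2 and 0.13 in clone 3, while that of all genes lies close to 0 in each clone.

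Origin recognition was the role in which the clones differed least. The 6 ORC genes summed to 120, 138 and 141 CPM, so that clone 1 stood at 85.8% of the mean of the others. Orc3, a core subunit, had 29.3, 28.0 and 26.6 CPM in clones 1, 2 and 3. Its counts of 728, 631 and 673 were not called different between the libraries (chi-square, adjusted p = 0.264), and it was 1 of 2 genes in the set that were not lowest in clone 1. The other was Orc4, a core subunit with an ATPase fold, which had 28.3, 28.2 and 35.2 CPM. Clones 1 and 2 were level in Orc4 and clone 3 was higher (adjusted p = 7.34e-06 by the same test).

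The remaining ORC genes were lowest in clone 1. Orc6, whose product is the most loosely bound subunit in mammals, had 23.7, 28.2 and 26.8 CPM, a fold of 1.19 between the extremes (chi-square, adjusted p = 0.0130). Orc2 had 21.4, 27.2 and 27.7 CPM, although 20.1% of its 86-base stretches also occur in Nif3l1, a gene on the opposite strand. Orc5 differed more, with 9.98, 14.8 and 14.2 CPM. Orc1, the ATPase subunit whose protein is known to vary through the cell cycle, had 6.96, 11.3 and 10.4 CPM and the widest fold of the complex, 1.62. Without Orc1 the complex stood at 87.7% in clone 1.

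Licensing factors differed more. Cdc6, the ATPase that joins ORC to load the helicase, had 6.40, 17.1 and 12.2 CPM, the largest fold of all 51 genes at 2.67 (chi-square, adjusted p = 8.33e-25). About 20.8% of its stretches are shared with the pseudogene Gm9430. Cdt1, which brings MCM2-7 to the origin, had 18.8, 29.1 and 24.9 CPM. Gmnn encodes geminin, the inhibitor of CDT1, and had 6.92, 11.4 and 8.87 CPM. Inhibitor and target kept a similar ratio across the clones, Cdt1 over Gmnn in CPM per kb being 1.40, 1.31 and 1.45.

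Within MCM2-7, the core of the replicative helicase, the 6 genes summed to 271, 554 and 455 CPM, so that clone 1 held 53.7% of the mean of the others. Mcm6 had 60.3, 127 and 103 CPM. Mcm4 had 44.7, 97.4 and 75.7 CPM. Mcm2 had 41.4, 83.4 and 69.4 CPM. All 3 show the same step, with clone 1 low, clone 2 high and clone 3 in between. Mcm3 had 38.2, 83.2 and 66.8 CPM and Mcm5 had 33.8, 74.2 and 59.5 CPM. The fold between the extremes therefore ran only from 2.01 in Mcm2 to 2.19 in Mcm5 over these 5 genes, although their counts in clone 1 ranged from 840 to 1499.

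Mcm7 moved less than the other subunits. It had 52.4, 88.7 and 80.8 CPM, a fold of 1.69. Of all MCM2-7 counts it took 19.4% in clone 1 (95% Wilson interval 18.4 to 20.3%), 16.01% in clone 2 (15.4 to 16.7%) and 17.8% in clone 3 (17.1 to 18.5%). The interval of clone 2 lies below the others, those of clones 1 and 3 meet at their ends, and all cover counting error only, since PCR copies are not independent molecules. Mcm2 by contrast took 15.3%, 15.1% and 15.3%. Beside this, 55.4% of the 86-base stretches of Mcm7 also occur in the pseudogene Gm5487 or in Ap4m1, whereas none of Mcm2 or Mcm3 did, and the part of shared reads in the Mcm7 values was not tested. The other MCM members, Mcm8 of the meiotic and repair helicase and Mcm10, a factor of helicase activation, had 4.27, 6.61 and 6.41 CPM and 9.34, 19.2 and 15.4 CPM.

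**Figure D4:**
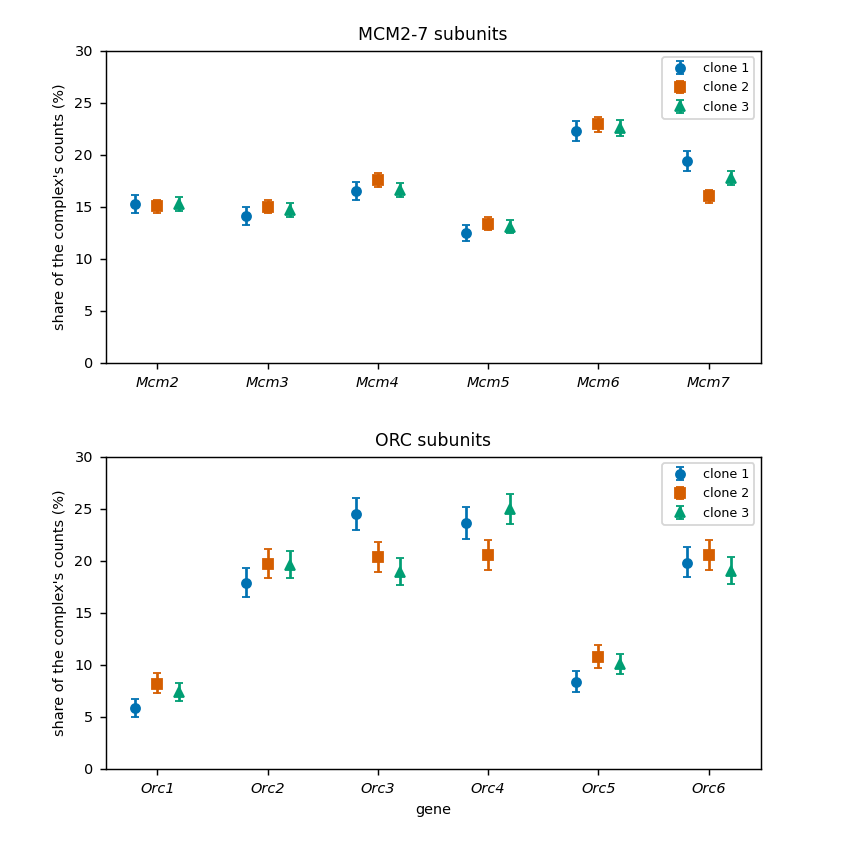
Share of each subunit in the counts of its complex, in percent, for MCM2-7 and for ORC in the 3 clones, with 95% Wilson intervals that cover counting error only. The share of Mcm2 lies between 15.1% and 15.3% while that of Mcm7 is 19.4% in clone 1 and 16.01% in clone 2, and in ORC the share of Orc3 goes from 24.5% in clone 1 to 18.9% in clone 3.

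Helicase activation genes were all lowest in clone 1 and together stood at 60.5% there. Cdc45, the subunit that joins MCM2-7 and GINS in the active helicase, had 285, 496 and 475 counts, a fold of 1.92 in CPM. The 4 GINS proteins are present in equal number in their complex, and the levels of their genes differed 7.19-fold per kb. Gins4 averaged 12.0 ± 2.46 CPM per kb (SD, n = 3), Gins2 4.35 ± 1.35, Gins1 3.50 ± 0.804 and Gins3 1.66 ± 0.468, and this order held in every clone. Gins2 shares 70.1% of its stretches with Gse1 on the opposite strand, and whether the counting used strand is not given in the sources used here. The kinase Cdc7 and its activating subunit Dbf4 did not move alike. Cdc7 had 7.16, 17.2 and 13.7 CPM, a fold of 2.40, and was highest in clone 2. Dbf4 had 30.3, 45.1 and 48.5 CPM, a fold of 1.60, and was highest in clone 3. Over clones 1, 2 and 3 the ratio of Cdc7 to Dbf4 in CPM per kb was 0.181, 0.293 and 0.218.

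The polymerases and primase were lowest in clone 1 in all 6 cases. Pola1, the catalytic subunit of the polymerase that starts each new strand, had 10.3, 23.5 and 22.4 CPM, a fold of 2.29. Its partner Pola2 had 16.2, 28.1 and 24.9 CPM. The primase subunits behaved differently from each other: the catalytic Prim1 had 9.54, 19.5 and 16.03 CPM, and the large subunit Prim2 had 14.7, 20.7 and 16.1 CPM. Clone 1 stood at 53.7% of the others in Prim1 and at 79.9% in Prim2. Pola1 went from 20.2% of the counts of the complex in clone 1 (18.1 to 22.5%) to 28.2% in clone 3 (26.3 to 30.2%), while Prim2 went from 29.0% to 20.2%. Pold1, of the polymerase known for the lagging strand, had 30.5, 52.2 and 43.6 CPM. Pole, of the polymerase known for the leading strand, had 26.3, 51.5 and 39.4 CPM.

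Among clamp and clamp loaders, Pcna stood far above the rest. The PCNA ring tethers polymerases to DNA, and its gene had 54.3, 104 and 78.1 CPM, although 48.8% of its stretches recur in the pseudogene Pcna-ps2. The subunits of replication factor C, which opens the ring, varied less. Rfc3 had 12.4, 15.0 and 14.5 CPM and was not called (counts of 308, 339 and 365, chi-square, adjusted p = 0.0564). Rfc1, the large subunit, had 34.7, 42.2 and 43.8 CPM, and Rfc2 had 22.8, 32.3 and 27.6 CPM. Rfc4 and Rfc5 went further, with folds of 1.72 and 1.78, although 33.3% of the stretches of Rfc5 also occur in other genes. The ratio of Pcna to Rfc3 in CPM per kb was 3.80, 5.99 and 4.69. Chtf18 and Dscc1 belong to the alternative loader known for its role in sister chromatid cohesion. Chtf18 had 14.1, 22.8 and 20.2 CPM, and Dscc1, the least expressed gene of the set, had 25, 53 and 35 counts.

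RPA, the single-strand binding complex, kept its proportions. Rpa1 had 63.0, 118 and 99.2 CPM and took 81.0%, 81.3% and 81.0% of the complex's counts. Rpa2 had 9.42, 17.8 and 14.6 CPM and Rpa3 had 5.39, 9.40 and 8.55 CPM. Clone 1 stood at 57.9%, 58.0% and 60.1% of the others in these genes. Of the Okazaki fragment genes, the flap nuclease Fen1 had 19.7, 35.7 and 29.7 CPM and the ligase Lig1 had 28.3, 54.9 and 45.4 CPM. Fen1 is uncertain as a single gene, since 79.9% of its stretches also occur in Gm10143, which overlaps it on the opposite strand. Gm10143 is not in the count table under this name. Tmem258, which also overlaps Fen1 on the opposite strand, is in the table.

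Fork protection genes fell into a wider and a narrower pair. Clspn encodes claspin, the adaptor of the replication checkpoint, and had 13.2, 31.8 and 24.9 CPM, a fold of 2.41. Wdhd1, the linker between helicase and polymerase alpha, had 12.8, 27.5 and 21.4 CPM, a fold of 2.14. Timeless and Tipin, which form 1 complex at the fork, had 14.1, 20.3 and 20.0 CPM and 15.8, 22.9 and 19.8 CPM, with folds of 1.44 and 1.45.

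Nucleotide supply was the role in which clone 1 stood lowest, at 49.1% of the mean of the others. Rrm1 and Rrm2 encode the large and the small subunit of ribonucleotide reductase. Rrm1 had 96.6, 220 and 171 CPM, and Rrm2 had 63.1, 145 and 128 CPM. Their ratio, Rrm2 over Rrm1 in CPM per kb, was 1.19, 1.20 and 1.36. Tk1, the thymidine kinase of dividing cells, had 22.1, 54.7 and 37.5 CPM, a fold of 2.47. Tyms, the thymidylate synthase, had 17.6, 29.7 and 25.7 CPM, a fold of 1.69. All 4 genes were called different between the libraries, with adjusted p of 2.75e-16 or lower by chi-square.

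Levels of the 51 genes were ranked per kb, with the length of the transcript that has the longest open reading frame. Pcna averaged 51.9 ± 16.3 CPM per kb (SD, n = 3) and Rrm2 51.1 ± 19.7, and these did not differ beyond their spread. They were followed by Rrm1 at 40.7, Mcm6 at 33.2 and Rpa1 at 31.8 CPM per kb. At the other end stood Dscc1 at 1.05, Gins3 at 1.66 and Mcm8 at 1.81 CPM per kb. The range was thus 49.2-fold across the set, and its median of 8.58 CPM per kb lay near the 8.47 of all 11345 expressed genes. Of the 51 genes, 7 ranked among the first 2836 of those genes.

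**Figure D5:**
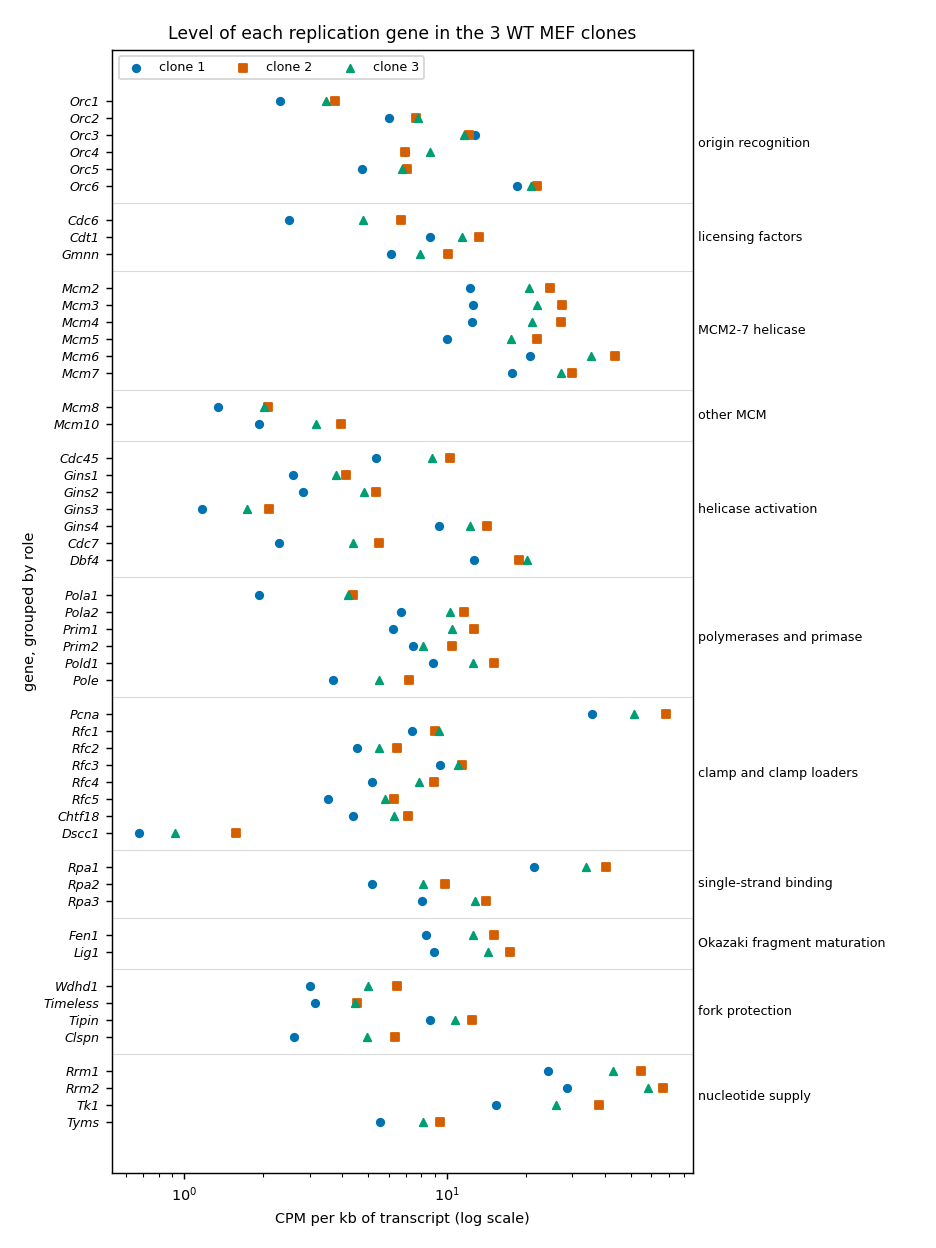
Level of each of the 51 genes in CPM per kb of transcript, on a log scale, with 1 point per clone and the genes grouped by role. Pcna and Rrm2 lie furthest to the right, with means of 51.9 and 51.1, and Dscc1 furthest to the left, with a mean of 1.05.

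Subunits of 1 complex did not have equal RNA levels. In MCM2-7 the order Mcm6, Mcm7, Mcm3, Mcm4, Mcm2, Mcm5 held in every clone, with a 2.01-fold step from Mcm6 to Mcm5. The order depends on the length used: divided by all annotated exons, Mcm2 was lowest, and with the longest transcript Mcm7 was highest. In ORC, Orc6 averaged 20.4 ± 1.81 CPM per kb and Orc1 3.17 ± 0.756, a 6.44-fold distance, and Orc6 was highest under all 3 lengths. Orc4 at 7.52 ± 0.986 and Orc2 at 7.14 ± 0.978 changed places between clones and did not differ beyond their spread. Prim1, Pola2 and Prim2 likewise overlapped, at 9.77 ± 3.28, 9.52 ± 2.53 and 8.69 ± 1.60 CPM per kb, while Pola1 at 3.50 ± 1.37 was below them in every clone.

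Whether genes with an E2F word spread more widely differed between the lists. Within the set, the 15 genes with a word had a median range of 0.75 (log2) between clones and the 26 genes with a window but no word had 0.80. In the further list of replication genes described next, 11 genes with a word had a median range of 0.91 and 28 without had 0.53. Neither difference was tested. Orc3 and Rfc3, the 2 genes not called different, both held a word. Among the genes with wide ranges, Cdc6 (1.29), Clspn (1.21), Pola1 (1.12) and Mcm5 (1.11) held a word. Rrm1, Rrm2, Tk1 and Cdc7, with ranges of 1.18, 1.19, 1.27 and 1.16, held none of these words in their windows.

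A further list of 50 genes with roles around the fork was examined beside the set, of which 49 were in the table (Dbf4b was not matched, and Pclaf was listed under an older symbol). Clone 1 was lowest for 44 of the 49, and 43 were called different between the libraries, against 39.4% and 62.5% of all genes. Their median range was 0.54. Among the largest ranges were those of the PCNA-binding factor Pclaf (1.16), the histone chaperone Asf1b (1.11), the methylation factor Uhrf1 (1.09) and the PCNA unloader Atad5 (1.06). The highest CPM, not divided by length, were those of Ssrp1 and Supt16 of the FACT histone chaperone, with Dnmt1, Chtf8 and Topbp1. Their means were 216, 85.1, 124, 115 and 94.6 CPM in that order.

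The smallest ranges in that list were those of Rnaseh2b (0.06), Ctc1 (0.14), Rnaseh2c (0.17), Rnaseh1 (0.23) and Pole4 (0.23). The RNase H genes remove RNA from DNA in and outside S phase. Not lowest in clone 1 were Pold4, Mcm9, Rnaseh1, Rrm2b and Tk2. Rrm2b encodes the p53-inducible small subunit of ribonucleotide reductase and Tk2 the mitochondrial thymidine kinase, and each shares its activity with a member of the set. Tk2 had 15.1, 9.67 and 11.4 CPM where Tk1 had 22.1, 54.7 and 37.5, and Rrm2b had 7.53, 7.10 and 8.87 CPM where Rrm2 had 63.1, 145 and 128.

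Outside both replication lists, the genes closest to the set in their pattern were sought among 8308 genes that averaged 10 CPM or more, as the smallest root mean square distance to the median deviations of the set over the 3 clones. The 10 closest were Espl1, Dusp7, Mki67, S1pr2, Kpna2, Zwilch, Ncapd2, Spag5, Nuf2 and H2afx, at distances between 0.00375 and 0.0214 (log2). With 3 clones such a likeness rests on 3 points per gene. Espl1, the separase that cuts cohesin at anaphase, had 26.7, 46.1 and 40.1 CPM.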

How the data were processed

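PolyA+ RNA of 3 WT MEF clones was sequenced on HiSeq instruments. The authors deposited 1 table of raw read counts per gene. The submitters' processing notes name TopHat2 2.0.0, Bowtie 0.12.7, SAMtools 0.1.16, HTSeq and FastQC, with build mm9, whereas the study's methods name mm10. The table has no coordinates, and the build behind the counts could not be settled from it. The annotation and the strand setting of the counting are not given in the sources used here.

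From the counts, CPM were computed with TMM factors (edgeR 4.0.16, R 4.3.3), and log2 values with a pseudocount of 1 CPM. No edgeR test was possible with 1 group. Counts of the 3 libraries were compared by a chi-square test with 2 degrees of freedom (scipy 1.17.1). It was adjusted by Benjamini-Hochberg over the 12218 genes that reached 10 counts in each library, and genes were called at 0.05. The procedure was tried on simulated counts whose only noise was counting noise, so the trial does not cover variation between clones. A count of 3 equals 0.119 to 0.133 CPM. Lengths came from GENCODE M21 (GRCm38), to which 21117 of 21782 symbols matched directly and 594 through a synonym. Shared sequence was found by aligning 86-base stretches, 1 every 5 bases, to all transcripts with up to 2 mismatches (BWA 0.7.19-r1273). Promoters are from RefSeq (GRCm38.p6).

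The members and lists were chosen with earlier results of these data known, and the order of the clones in proliferation genes is not independent support. All members were named, with the other replication genes of highest level, of largest and of smallest range (5 each), those not lowest in clone 1, and the 10 genes of most similar pattern. 1 gene that this rule names is not reported here. Alternatives were DESeq2 1.42.0 size factors, total counts, thinned counts, other count filters, pseudocounts and lengths, and leaving out each clone.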

Additional observations from a re-analysis of the deposited data

How the results depend on the processing

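The limit for counts of genes or of subunit pairs was 1.5-fold, as a share of those tested. For the levels and their sum it was the SD over clones, and for the median range the SD over genes. Leaving out clone 1 was the alternative that moved results past these limits. Without it, 30 of the 51 replication genes were called different between the libraries (30 to 49 over the fits that left out 1 clone each), the median range was 0.22 (0.22 to 0.75), and 14 of the 49 other replication genes were called (14 to 42), where 31.7% of all genes were called without it. The other 60 recomputed values stayed within their limits. Among them, the levels and sums without 1 clone each could not have passed theirs. Leaving out a clone always moves such a mean by less than the SD over the clones. These values therefore do not test whether the levels are stable. With total counts as the scaling, 50 genes were lowest in clone 1 in place of 49. The levels without 1 clone each had a median of 19.1 to 26.7 CPM and a sum of 1486 to 1991 CPM, and the number lowest in clone 1 was 49 to 50, or 45 to 46 in the other list, where it was 44 with all clones. Of 55 pairs of subunits, 44 kept their order with all annotated exons and 47 with the longest transcript. After the data were seen, a trend on GC content and length was removed, which left 49 genes lowest in clone 1 and a median range of 0.73, and the 34 genes with under 5% shared stretches were taken alone, of which 33 were lowest in clone 1. Depth limits Dscc1, Gins1 and Gins3 most, with 25 to 119 counts per clone.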
